A study of Mus musculus with 9 samples.

Results

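Granule genes and transcription factors of the granulocyte-monocyte lineage were examined in sorted megakaryocyte-erythroid progenitors (MEPs). The 10 genes, chosen by symbol, were Mpo, Elane, Prtn3, Ctsg, Ms4a3, Cebpa, Cebpe, Spi1, Irf8 and Csf1r, and each matched 1 of the 35275 gene identifiers counted. RNA was sequenced from mouse bone marrow MEPs gated as Lin-ckit+CD34-FcγRII/IIIlo, in 3 groups of 3 libraries. The methods give 25000 cells per condition, without saying whether that is per library. HS3A8-high and HS3A8-low MEPs were the stronger and the weaker binding part of the gate for HS3A8, a single-chain antibody fragment (scFv) against heparan sulfate (HS). MPB49 control MEPs were mock-sorted, using an scFv without affinity for HS, and stand for total MEPs. The methods list C57Bl/6 wild-type mice among several strains, aged 6 to 12 weeks, without tying a strain to these libraries. No group carried a transgene or a drug treatment according to the labels. The study's text gives 3 individual mice for the HS3A8 fractions, without saying whether both fractions of a number came from 1 mouse, and no source used here says so for the control.

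Granulocytes and monocytes arise from granulocyte-monocyte progenitors, a sister population of MEPs in the classical scheme of myelopoiesis. At the promyelocyte stage these cells load azurophil granules with myeloperoxidase and with a family of neutral serine proteases. The transcription factors PU.1 and C/EBPα start this programme and oppose the erythroid factor GATA1, C/EBPε serves later granulocyte maturation, and IRF8 directs cells toward monocytes and dendritic cells. The MEP gate is drawn to leave such cells out, by low CD34 and low Fcγ receptor II/III, and the lineage antibodies included Gr-1 and CD11b, which mark granulocytes and monocytes.

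The sorted gate was checked against its defining genes. Gata1, the erythroid and megakaryocytic master factor, lay between 355 and 513 CPM (read counts relative to the library size after scaling by the trimmed mean of M values, TMM) and Kit between 387 and 788 CPM. The genes behind the low-receptor part of the gate were uneven. Fcgr3, which encodes Fcγ receptor III, was at 17.8 and 44.4 CPM in the HS3A8-high and HS3A8-low libraries numbered 3 and between 0.147 and 2.3 CPM in the other 7. Cd34 ranged from 0.836 CPM in HS3A8-high replicate 2 to 74.5 CPM in HS3A8-low replicate 3. Library totals were 11781637 to 15850037 counts, so that a count of 0 allows up to 3 counts, or 0.189 to 0.255 CPM. Such limits and the intervals below cover counting error only.

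The stretches upstream of the 4 granule enzyme genes are shown because the levels of these genes followed each other across the libraries and because the same short sequence, GAGGAA, was found before the RefSeq start of each. GAGGAA is a core bound by ETS factors, among them PU.1, and it is set in capitals. The stretches are the exon-free part of the 250 bases before the RefSeq start (GRCm38.p6), read on the gene's strand, and lie at chr11:87793534-87793580 (Mpo, plus strand), chr10:79886062-79886246 (Elane, plus), chr10:79879417-79879613 (Prtn3, plus) and chr14:56102575-56102824 (Ctsg, minus). Those of Mpo, Elane and Ctsg end at the base before the first annotated exon, and that of Prtn3 lies in an intron of its longer GENCODE gene model.
Mpo: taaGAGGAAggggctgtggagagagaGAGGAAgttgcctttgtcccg
Elane: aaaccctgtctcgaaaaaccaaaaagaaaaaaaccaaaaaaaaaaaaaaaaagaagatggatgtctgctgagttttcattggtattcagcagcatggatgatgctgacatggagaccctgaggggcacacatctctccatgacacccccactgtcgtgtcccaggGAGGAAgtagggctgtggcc
Prtn3: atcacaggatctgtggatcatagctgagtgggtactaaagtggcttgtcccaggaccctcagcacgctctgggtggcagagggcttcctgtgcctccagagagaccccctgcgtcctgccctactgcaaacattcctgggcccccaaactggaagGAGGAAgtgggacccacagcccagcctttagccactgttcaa
Ctsg: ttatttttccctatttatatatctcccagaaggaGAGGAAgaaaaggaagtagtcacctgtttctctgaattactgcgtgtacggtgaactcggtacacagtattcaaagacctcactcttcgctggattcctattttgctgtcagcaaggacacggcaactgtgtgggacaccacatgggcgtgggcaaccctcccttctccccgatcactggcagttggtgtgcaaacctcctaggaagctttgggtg
Mpo held the sequence at positions -247 to -242 and again at -224 to -219, Elane at -85 to -80, Prtn3 at -95 to -90 and Ctsg at -216 to -211, counted back from the start.

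The promoter table held 7 of the 10 genes, without Cebpe, Spi1 and Csf1r, and GAGGAA stood on either strand in 4 of these 7 windows of 250 bases, against 23.3% of the windows of all 32851 promoters. The other letters searched, on both strands, were TTNCNNNAA for C/EBP factors, found in 2 of 7 (Ms4a3 and Irf8) against 32.9% of all, and TAACNG for MYB, found in 2 of 7 (Mpo and Elane) against 19.8%. TGTGGT for RUNX factors was found in 1 of 7 (Ctsg) against 14%. GGAANNGAA, a composite for ETS and IRF factors that can overlap an ETS core, was found in 0 of 7 against 6.99%. These matches describe letters in a window and not binding.

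Read per kilobase of exon, the enzymes of the azurophil granule had the highest means in the MPB49 control, an order that did not hold in every library. In the MPB49 control, mean levels were 21.4 CPM per kb for Mpo, 15.2 for Elane, 7.4 for Prtn3, 5.49 for Ctsg and 4.66 for Spi1. The level of Irf8 was 2.79 CPM per kb, that of Ms4a3 1.13 and that of Cebpa 0.862. Csf1r and Cebpe were lowest, at 0.354 and 0.239 CPM per kb. For comparison, Gata1 had 176 CPM per kb in the same libraries. The SD over the 3 controls was 14.3 CPM per kb for Mpo and 11.3 for Elane, and Mpo and Elane, Elane and Prtn3, Prtn3 and Ctsg, Ctsg and Spi1, and Ms4a3 and Cebpa lay closer to each other than the larger SD of the pair. Spi1 and Irf8, Irf8 and Ms4a3, Cebpa and Csf1r, and Csf1r and Cebpe lay further apart than that. Over all 9 libraries the order of the leading genes was different, with Elane at 133 and Mpo at 89.4 CPM per kb, a difference carried by the libraries numbered 3.

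Mpo encodes myeloperoxidase, the enzyme that makes hypochlorous acid (ENSMUSG00000009350, GRCm38 chr11:87793581-87804413, 15 exons after merging of transcripts, 15% of exon bases shared with Gm11505). Its level was 5.9, 2.51 and 714 CPM in HS3A8-high replicates 1, 2 and 3, and 51.1, 137 and 1626 CPM in the HS3A8-low replicates of the same numbers. The MPB49 controls were at 19.6, 115 and 85.1 CPM. Both sorted libraries numbered 3 were therefore far above every other library, and the groups overlapped because HS3A8-high replicate 3 exceeded HS3A8-low replicates 1 and 2. Within each number HS3A8-low was the higher one, 8.66-fold in pair 1 (95% exact counting interval 7 to 10.8), 54.4-fold in pair 2 (38.6 to 79.3) and 2.28-fold in pair 3 (2.23 to 2.33). The ratio thus differed between the pairs by more than counting error.

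Elane encodes neutrophil elastase (ENSMUSG00000020125, chr10:79886247-79888215). It was at 1.43, 0.228 and 341 CPM in HS3A8-high, at 12.1, 28.3 and 749 CPM in HS3A8-low, and at 4.41, 26.6 and 13.9 CPM in the control. HS3A8-high replicate 2 rested on 3 counts, at the limit of what a count of 0 allows, and the span from the lowest to the highest library was 3285-fold. HS3A8-low exceeded HS3A8-high 8.47-fold in pair 1 (5.49 to 13.7), 124-fold in pair 2 (42.2 to 605) and 2.2-fold in pair 3 (2.12 to 2.28).

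Prtn3 encodes proteinase 3, a close relative of elastase and its neighbour on chromosome 10 (ENSMUSG00000057729, chr10:79874476-79883174, 9.18% of exon bases shared with Plppr3). Its levels were 3.54, 1.98 and 109 CPM in HS3A8-high, 12.3, 27 and 281 CPM in HS3A8-low and 8.1, 16.5 and 13.8 CPM in the control. The pairs ran in the same direction, with HS3A8-low 3.48-fold (2.59 to 4.75), 13.7-fold (9.2 to 21.2) and 2.59-fold (2.44 to 2.75) higher in pairs 1, 2 and 3. Ctsg encodes cathepsin G (ENSMUSG00000040314, chr14:56099881-56102574), and was at 0.559, 0 and 77.7 CPM in HS3A8-high, at 1.94, 9.21 and 199.7 CPM in HS3A8-low and at 3.33, 7.53 and 6.16 CPM in the control. HS3A8-low was 3.47-fold (1.62 to 8.24) above HS3A8-high in pair 1, at least 40.4-fold in pair 2, where the HS3A8-high count was 0 and was set to 3 counts for that library, and 2.57-fold (2.4 to 2.76) in pair 3. Both genes thus had pair 2 furthest apart, as Mpo and Elane did. The counting intervals of pairs 1 and 3 overlapped for both, so these pairs were not ordered beyond counting error.

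Ms4a3 encodes a tetraspan membrane protein characteristic of granulocyte-monocyte progenitors (ENSMUSG00000024681, chr19:11629496-11640851). It had 0.0621, 0.076 and 26.7 CPM in HS3A8-high, 1.7, 2.23 and 72.2 CPM in HS3A8-low and 0.36, 3.25 and 2.79 CPM in the control. The first 2 HS3A8-high values are 1 count each, under the limit for a count of 0, so the ratios of 27.4 (4.55 to 1120.0) in pair 1 and 29.3 (4.89 to 1196) in pair 2 are loosely held, while that of pair 3 was 2.7 (2.4 to 3.05).

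**Figure D1:**
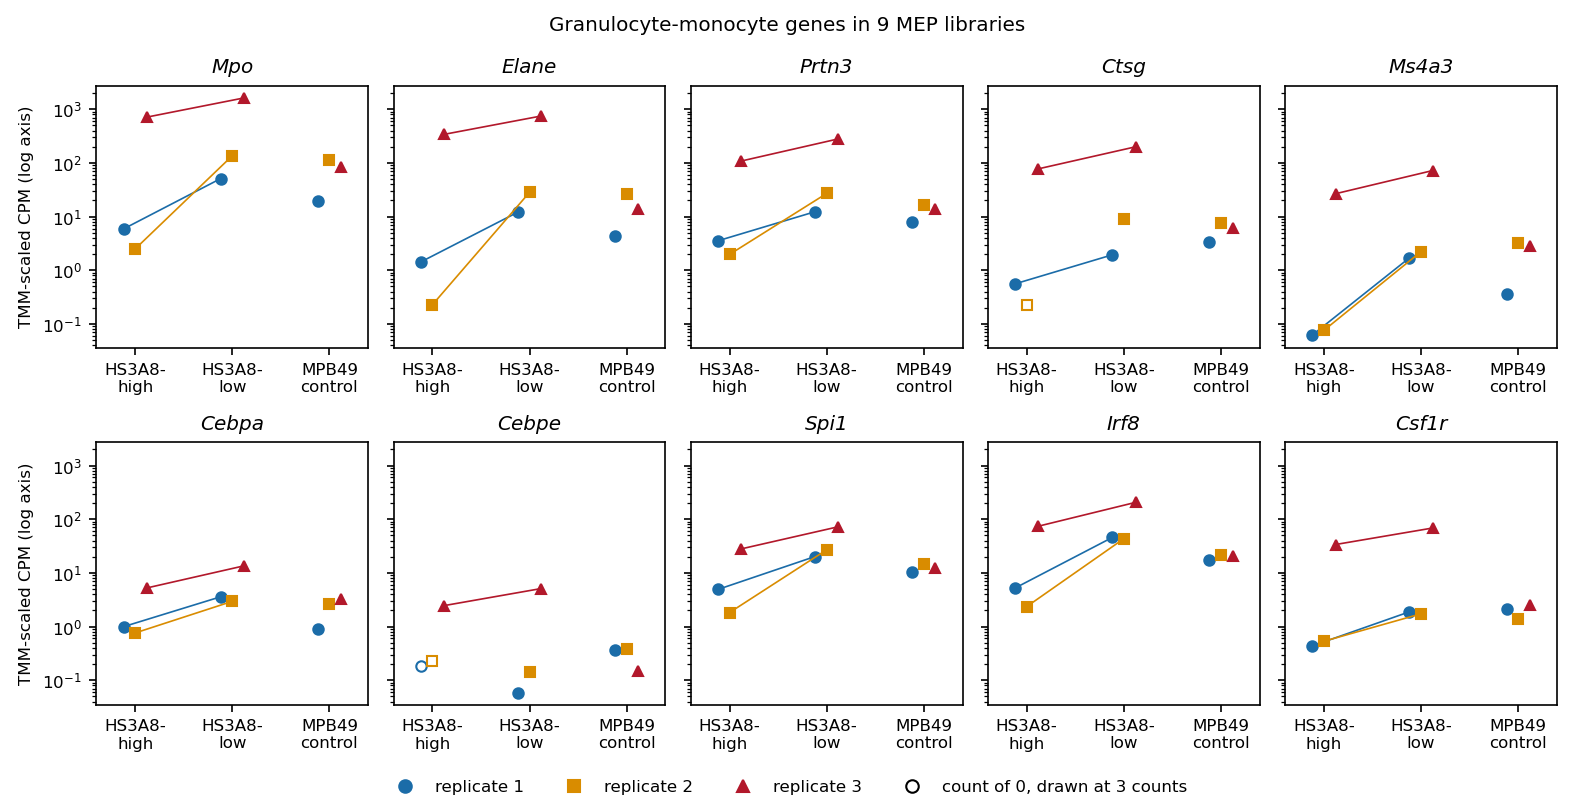
TMM-scaled CPM on a log axis of each of the 10 genes in the HS3A8-high, HS3A8-low and MPB49 control libraries, 1 point per library, coloured by replicate number, with same-numbered HS3A8 libraries joined where both counts are above 0. In every panel both HS3A8 libraries numbered 3 (triangles) lie above the other 4 HS3A8 libraries and above all 3 controls, as for Mpo at 714 and 1626 CPM.

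Among the transcription factors, Spi1, which encodes PU.1, had the highest mean per kilobase over the 9 libraries, at 7.9 CPM per kb, with Irf8 at 6.85 and slightly above it in both HS3A8 libraries numbered 3 (ENSMUSG00000002111, chr2:91082390-91115756). It was at 4.91, 1.82 and 28 CPM in HS3A8-high, at 20.2, 26.9 and 72.3 CPM in HS3A8-low and at 10.4, 14.7 and 12.6 CPM in the control. HS3A8-high replicate 3 lay only 1.04-fold above the higher of HS3A8-low replicates 1 and 2, so that Spi1 came nearest of the 10 genes to separating the fractions. Within pairs HS3A8-low was 4.11-fold (3.21 to 5.31), 14.8-fold (9.76 to 23.3) and 2.59-fold (2.3 to 2.91) higher.

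Irf8 encodes the factor of monocyte and dendritic cell fate (ENSMUSG00000041515, chr8:120736358-120756694). Its levels were 5.22, 2.36 and 74 CPM in HS3A8-high, 45.6, 43.4 and 206 CPM in HS3A8-low and 17.2, 21.6 and 20.3 CPM in the control. The 3 controls were close to each other, HS3A8-low replicates 1 and 2 stood above all of them, and HS3A8-high replicates 1 and 2 stood below all of them. The ratio of HS3A8-low to HS3A8-high was 8.74 (6.97 to 11.1), 18.4 (12.8 to 27.3) and 2.78 (2.59 to 2.98) in pairs 1, 2 and 3.

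Cebpa, which encodes C/EBPα, had the narrowest span of the genes with a count in every library, 17.8-fold (ENSMUSG00000034957, chr7:35119293-35121928, 1 exon, 1.93% of it shared with Gm45091). Its levels were 0.994, 0.76 and 5.24 CPM in HS3A8-high, 3.58, 2.95 and 13.5 CPM in HS3A8-low and 0.9, 2.62 and 3.3 CPM in the control. The counting intervals of the 3 pairs overlapped, at 3.61-fold (2.05 to 6.7), 3.88-fold (1.91 to 8.69) and 2.58-fold (1.96 to 3.42) higher in HS3A8-low. Cebpe, which encodes C/EBPε, had more than a few counts in the HS3A8 libraries numbered 3 alone (ENSMUSG00000052435, chr14:54710360-54712174). It had 0, 0 and 37 counts in HS3A8-high, 1, 2 and 60 counts in HS3A8-low, and 4, 6 and 2 counts in the control, and pairs 1 and 2 allow no ratio. In pair 3 HS3A8-low was 2.08-fold higher (1.36 to 3.22).

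Csf1r encodes the receptor for M-CSF, the growth factor of monocytes and macrophages (ENSMUSG00000024621, chr18:61100598-61132149, 15.1% of exon bases shared with Hmgxb3). It was at 0.435, 0.532 and 33.7 CPM in HS3A8-high, at 1.88, 1.73 and 68.5 CPM in HS3A8-low and at 2.16, 1.4 and 2.57 CPM in the control. HS3A8-low replicates 1 and 2 were no higher than the control replicates 1 and 3, and HS3A8-high replicate 3 exceeded them 17.9-fold. The ratios of HS3A8-low to HS3A8-high were 4.32 (1.87 to 11.6), 3.25 (1.36 to 8.92) and 2.03 (1.81 to 2.27).

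Across the 10 genes, HS3A8-low exceeded HS3A8-high in each of the 3 same-numbered pairs for 10 of 10. That was so for 27.6% of all 11791 genes tested. For Cebpe the difference in pairs 1 and 2 was 1 and 2 counts, within what a count of 0 allows. The median ratio was 4.32 in pair 1 over the 9 genes with a ratio, 16.6 in pair 2 over 8 genes and 2.58 in pair 3 over 10 genes. Pair 3 had the tightest range, from 2.03 for Csf1r to 2.78 for Irf8, and pair 2 the widest, from 3.25 for Csf1r to 124 for Elane. With 3 pairs, an exact two-sided sign test of any 1 gene cannot go below p = 0.25. Scaling by library totals in place of TMM moved the median log2 ratio of HS3A8-high to HS3A8-low from -2.11 to -2.19, from -4.04 to -4.11 and from -1.37 to -1.38 in pairs 1, 2 and 3.

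**Figure D2:**
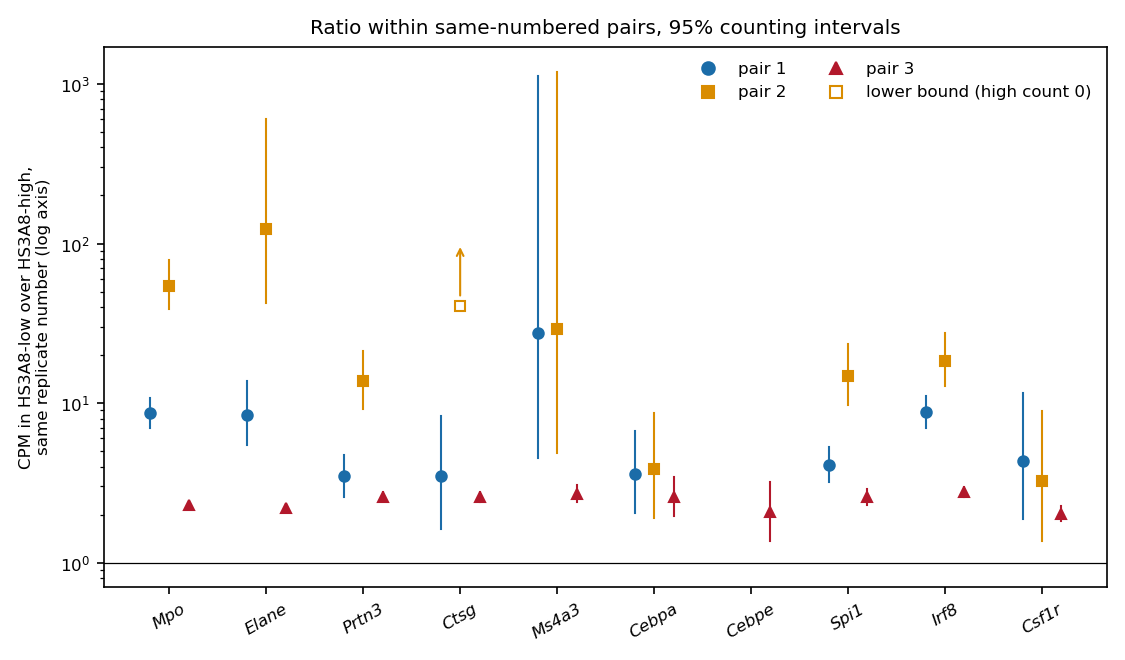
CPM in HS3A8-low divided by CPM in the HS3A8-high library of the same number, on a log axis, for each gene; lines are 95% exact counting intervals, and the open square with an arrow is the lower bound of 40.4 for Ctsg in pair 2. All drawn ratios lie above 1, and those of pair 3 (triangles) sit between 2.03 and 2.78.

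The libraries numbered 3 stood apart within both fractions. In 10 of 10 genes both exceeded the other 4 HS3A8 libraries, as did 7.84% of all genes tested, and in 10 of 10 genes both exceeded every MPB49 control, the control numbered 3 included. The share of all genes with that order against the control was not counted. Among the genes with more than 3 counts in the higher of the other HS3A8-high libraries, HS3A8-high replicate 3 was 5.27-fold (Cebpa) to 238-fold (Elane) above it. Ms4a3 had 403 counts there against 1 and 1, and Cebpe had 37 against 0 and 0. The excess was 5.27-fold for Cebpa, 5.7-fold for Spi1 and 14.2-fold for Irf8, against 30.6-fold for Prtn3, 121-fold for Mpo and 238-fold for Elane. HS3A8-low replicate 3 was 2.69-fold (Spi1) to 36.4-fold (Csf1r) above the higher of the other HS3A8-low libraries. In bulk RNA, fewer cells of a type and less RNA per cell cannot be told apart.

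Some of the proportions between the genes also differed in these libraries. Elane was at 1.66 and 1.6 times the per-kilobase level of Mpo in HS3A8-high and HS3A8-low replicate 3, and at 0.316 to 0.842 times that level in the other 7 libraries. Spi1 was at 0.0498 and 0.0565 times the per-kilobase level of Mpo in the libraries numbered 3, and at 0.162 to 1.06 times in the others. The corresponding values for Irf8 were 0.0503 and 0.0614, against 0.0908 to 0.456. Prtn3, at 0.3 and 0.341 times the per-kilobase level of Mpo, and Ctsg, at 0.361 and 0.407 times, lay within the ranges of the other libraries, which were 0.283 to 1.56 and 0 to 0.563. In both fractions, replicate 3 thus had more elastase and less PU.1 and IRF8 transcript for each myeloperoxidase transcript than any other library.

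Tested over 3 against 3 libraries with edgeR's quasi-likelihood test, HS3A8-high and HS3A8-low did not differ at an adjusted p under 0.05 in any of the 9 genes that passed the filter on low counts. None reached an unadjusted p under 0.05, whereas 2339 of all 11791 genes tested did. The DESeq2 Wald test called 0 as well, and over all 18095 genes with counts it called 921 lower and 303 higher in HS3A8-high. Cebpe did not pass the filter of the edgeR test. Over all genes, edgeR called 3.21% higher in HS3A8-low. No gene of the 10 had every HS3A8-low library above every HS3A8-high library, whereas 15.1% of the genes tested did. The log2 fold change of HS3A8-high over HS3A8-low was -1.86 for Irf8 (SE 1.24, adjusted p = 0.466), -1.79 for Spi1 (SE 0.959, adjusted p = 0.363), -1.52 for Cebpa (SE 0.903, adjusted p = 0.413) and -1.34 for Mpo (SE 1.99, adjusted p = 0.76). Mpo rested on 33 to 19136 counts per HS3A8 library, and its SD was larger than its mean in both fractions, at 241 ± 409.7 CPM in HS3A8-high and 605 ± 886 CPM in HS3A8-low (SD, n = 3). Leaving out HS3A8-low replicate 3 alone, which keeps HS3A8-high replicate 3 in the fit, turned the sign for 6 of the 9 genes, among them Mpo at 1.35, Elane at 2.49 and Csf1r at 2.66.

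The replicate numbers paired the HS3A8 libraries by their expression, as described under the processing, and with the number as a block in edgeR 6 of the 9 genes were lower in HS3A8-high. They were Irf8 (-2.65, SE 0.459, adjusted p = 0.0229), Spi1 (-2.23, SE 0.426, adjusted p = 0.0282), Ms4a3 (-2.14, SE 0.505, adjusted p = 0.0481), Prtn3 (-2.04, SE 0.386, adjusted p = 0.0275), Cebpa (-1.69, SE 0.314, adjusted p = 0.0269) and Csf1r (-1.35, SE 0.252, adjusted p = 0.0269). With the block, 8.27% of all genes were called higher in HS3A8-low. Mpo (-2.87, SE 0.738, adjusted p = 0.0587), Elane (-2.32, SE 0.651, adjusted p = 0.0731) and Ctsg (-2.04, SE 0.591, adjusted p = 0.0786) did not pass, and these were the genes whose ratio differed most between pairs 2 and 3. Over all alternatives run, adjusted p ranged from 1.53e-08 to 0.811 for Irf8, from 1.26e-05 to 0.628 for Spi1 and from 2.68e-07 to 0.917 for Mpo. The lowest value of each came from a fit without both libraries numbered 3, which keeps 2 libraries of each fraction. That of Spi1 had the block as well. Such fits leave little from which to estimate the spread between libraries, so these lowest values are not strong support.

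With both HS3A8 libraries numbered 3 left out and no block, a fit added after the data had been seen, 2 libraries remained in each fraction and 6 of the 9 genes were called lower in HS3A8-high by edgeR, as 6.01% of all genes were. They were Mpo, Elane, Prtn3, Ms4a3, Spi1 and Irf8, with log2 fold changes from -4.67 for Ms4a3 (SE 0.735, adjusted p = 0.0212) to -2.76 for Spi1 (SE 0.453, adjusted p = 0.0238). Ctsg, Cebpa and Csf1r were at -4.14, -1.87 and -1.88 and did not pass. Prtn3, Ms4a3, Spi1 and Irf8 were thus called both with the block and without the libraries numbered 3. These fits share libraries, so the calls are not independent of each other. Without the libraries numbered 3, Ms4a3 had 1 and 1 counts in HS3A8-high against 29 and 31 in HS3A8-low. It passed the filter on low counts through HS3A8-low alone, so its call is not separate support. Elane had 23 and 3 counts in HS3A8-high against 206 and 394.

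**Figure D3:**
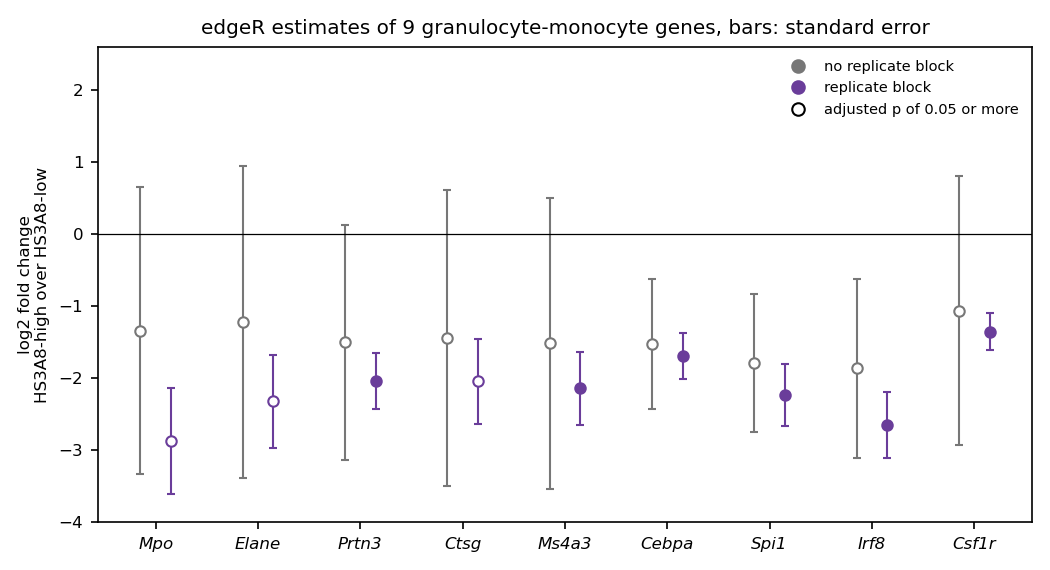
edgeR log2 fold change of HS3A8-high over HS3A8-low with its standard error for the 9 genes tested, over all 6 HS3A8 libraries, without (grey) and with (purple) the replicate number as a block; filled points have an adjusted p under 0.05. The grey points lie between -1.86 and -1.06 with none filled, and 6 of the purple points are filled.

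The MPB49 control shares its libraries between both comparisons below. Compared with it, the HS3A8-high fraction had 0 of 9 genes called by edgeR, 0 at an unadjusted p under 0.05 and 0 by DESeq2. Over all 11486 genes tested, edgeR called 0.0174%, and 562 had an unadjusted p under 0.05. The DESeq2 calls over all genes are given for both comparisons in the last section. HS3A8-high replicates 1 and 2 were below every control library in 9 of the 10 genes, and replicate 3 was above every control in all 10. The shares of all genes with these orders were not counted, so how unusual they are is not known. The log2 fold change of HS3A8-high over control was 1.71 for Mpo (SE 1.78), 0.46 for Irf8 (SE 1.1) and -0.12 for Spi1 (SE 0.858), and without HS3A8-high replicate 3 it was -4.11 for Mpo and -2.37 for Irf8. Leaving out that library turned the sign for 8 of the 9 genes.

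The HS3A8-low fraction had 0 of 9 genes called against the control by edgeR, where 0% of all genes were called. At an unadjusted p under 0.05 there were 7 of the 9, against 5.67% of all genes tested, and the DESeq2 Wald test called 1, Irf8. The log2 fold change of HS3A8-low over control was 2.28 for Irf8 (SE 0.621, adjusted p = 0.711), 1.63 for Spi1 (SE 0.48, adjusted p = 0.711), 3.02 for Mpo (SE 1.28, adjusted p = 0.84) and 4.11 for Elane (SE 1.57, adjusted p = 0.805). For Irf8 the adjusted p ran from 0.0151 to 0.994 over the alternatives. Without HS3A8-low replicate 3 the difference was -0.06 for Ctsg, -0.15 for Ms4a3 and -0.20 for Csf1r. The others tested kept HS3A8-low above the control under every alternative. Their lowest log2 fold changes were 0.33 for Mpo, 0.41 for Elane, 0.59 for Prtn3, 0.50 for Cebpa, 0.88 for Spi1 and 1.15 for Irf8.

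Further genes of the lineage were read from 4 lists of 33 genes in all, of which 24 passed the filter. Of all genes tested, 3.21% were called lower in HS3A8-high without the block and 8.27% with it by edgeR. Without the block, 2339 of the 11791 genes tested had an unadjusted p under 0.05 by edgeR. The DESeq2 Wald test called 921 of 18095 genes lower in HS3A8-high. The same shares apply to each of the lists below. Without the block 1 of the 24 was called lower in HS3A8-high and 0 higher, and with the block 12 were lower and 0 higher. The 1 gene was Srgn, which encodes serglycin, the proteoglycan core that stores proteases in granules, at 188, 212 and 223 CPM in HS3A8-high and 314, 349 and 411 CPM in HS3A8-low (log2 fold change -0.80, SE 0.116, adjusted p = 0.0253 by edgeR). Its libraries numbered 3 were not set apart, at 1.05-fold and 1.18-fold above the higher of the others. The control was at 514, 268 and 263 CPM, with 1 library above both fractions and 2 between them.

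Of the other genes handling granule proteases, Ctsc, whose product activates the serine proteases, was at 23.1, 26.8 and 45 CPM in HS3A8-high and 34.8, 42.3 and 113 CPM in HS3A8-low. Serpinb1a, an inhibitor of elastase and proteinase 3, was at 1.43, 1.75 and 19.4 CPM in HS3A8-high and 24.3, 24.6 and 53.7 CPM in HS3A8-low. Neither passed without the block over all libraries, and both passed with it, at -0.88 and -2.89 on the log2 scale (edgeR, adjusted p = 0.0283 and 0.0259). Without the libraries numbered 3 and with no block, Serpinb1a also passed (-3.93, SE 0.269, adjusted p = 0.0025) and Ctsc was at -0.61 (adjusted p = 0.127). With the block, all 3 genes of this list were lower in HS3A8-high.

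Of 15 further granule and effector genes, 6 were tested and 0 called without the block (edgeR, 0 at an unadjusted p under 0.05, 0 by DESeq2), and 2 were called lower in HS3A8-high with it, Lyz2 and S100a8. Lyz2, the lysozyme of macrophages and granulocytes, was at 5.03, 3.57 and 423 CPM in HS3A8-high, 30.6, 41.5 and 1480.4 CPM in HS3A8-low and 50.8, 16.7 and 21.1 CPM in the control. S100a8, which encodes a subunit of calprotectin, was at 14.8 and 43.2 CPM in the HS3A8 libraries numbered 3 and at 0.0621 to 2.3 CPM in the other 4 HS3A8 libraries. Chil3, Hp and Cybb, the next in level, were between 0 and 1.23 CPM outside the HS3A8 libraries numbered 3 and at 33.9, 37.4 and 14.6 CPM in HS3A8-high replicate 3. The list was not uniform. Lcn2 and Ltf were higher in HS3A8-high replicate 3 (3.98 and 0.795 CPM) than in HS3A8-low replicate 3 (3.14 and 0.51 CPM), at few counts. By DESeq2, 13 of the 15 had a lower estimate in HS3A8-high and 2 a higher one.

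Of 10 further receptors and surface genes, 10 were tested, 0 were called without the block (edgeR, 0 at an unadjusted p under 0.05, 0 by DESeq2) and 6 were called lower in HS3A8-high with it. Those 6 were Csf2ra and Csf2rb, the α and common β chains of the GM-CSF receptor, Ccr2, the chemokine receptor of monocytes, Itgam, which encodes CD11b, Ly6c2 and Clec12a. Ccr2 was at 1.3, 0.608 and 24.5 CPM in HS3A8-high and 20.6, 20 and 72.5 CPM in HS3A8-low. Ly6c2, a monocyte surface antigen, was at 200.4 and 511 CPM in the HS3A8 libraries numbered 3 and at 0.532 to 6.98 CPM in the other 4. Of 5 further transcription factors, 0 were called without the block (edgeR, 0 at an unadjusted p under 0.05, 0 by DESeq2) and 1, Klf4, was lower in HS3A8-high with it. The most abundant of them, Zeb2, was at 58.1, 47.2 and 59 CPM in HS3A8-high and 93.4, 67.8 and 56.9 CPM in HS3A8-low, and thus did not share the high level of the libraries numbered 3. Cebpb, Cebpd and Klf4 did share it, at 7.62, 8.68 and 4.57 CPM in HS3A8-high replicate 3 and 16.1, 16.1 and 13.3 CPM in HS3A8-low replicate 3. In all other libraries they were at 2.42 to 3.89, 1.49 to 3.6 and 0.076 to 2.25 CPM. Gfi1 was highest of its fraction in both libraries numbered 3, at 2.78 and 7.48 CPM.

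Of the marker lists of other cells, 2 were also highest in the HS3A8 libraries numbered 3. The 4 eosinophil genes summed to 5.17 and 159.6 CPM in HS3A8-high and HS3A8-low replicate 3, against 0 to 2.7 CPM in the other 7 libraries. Of these 4, Il5ra alone was at 0 in HS3A8-high replicate 3 and none was at 0 in HS3A8-low replicate 3, whereas 1 to 4 were at 0 in each of the other libraries. Prg2, which encodes eosinophil major basic protein, had 60 and 1327 counts in the libraries numbered 3. The 8 basophil and mast cell genes summed to 80.9 and 168 CPM there, against 1.62 to 27.8 CPM, with the mast cell tryptase gene Tpsb2 at 0 in every library. Prss34, a basophil protease, was at 39.8 and 75.6 CPM in these libraries, at 0 in the other 4 HS3A8 libraries and at 8.73, 0.0638 and 0 CPM in the control. Cpa3, a mast cell and basophil protease, was at 0.311, 0.912 and 4.44 CPM in HS3A8-high and 17.6, 21.1 and 23.3 CPM in HS3A8-low, and Ms4a2, a chain of the high-affinity IgE receptor, was lowest of its fraction in HS3A8-high replicate 3, at 0.663 CPM. The adult globin gene Hbb-bs was at 45.7 and 53.2 CPM there, against 4.91 to 27 CPM. The 10 T and NK cell genes and the 7 B cell genes summed to 37.2 and 5.24 CPM in HS3A8-high replicate 3 and 205 and 13.8 CPM in HS3A8-low replicate 3, with 223 to 256 and 10.1 to 12.9 CPM in HS3A8-low replicates 1 and 2. In HS3A8-high replicates 1 and 2 they summed to 12.7 and 4.64 CPM and to 1.74 and 1.37 CPM, below replicate 3 of that fraction. The part of any of these cells in the values above was not tested.

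**Figure D4:**
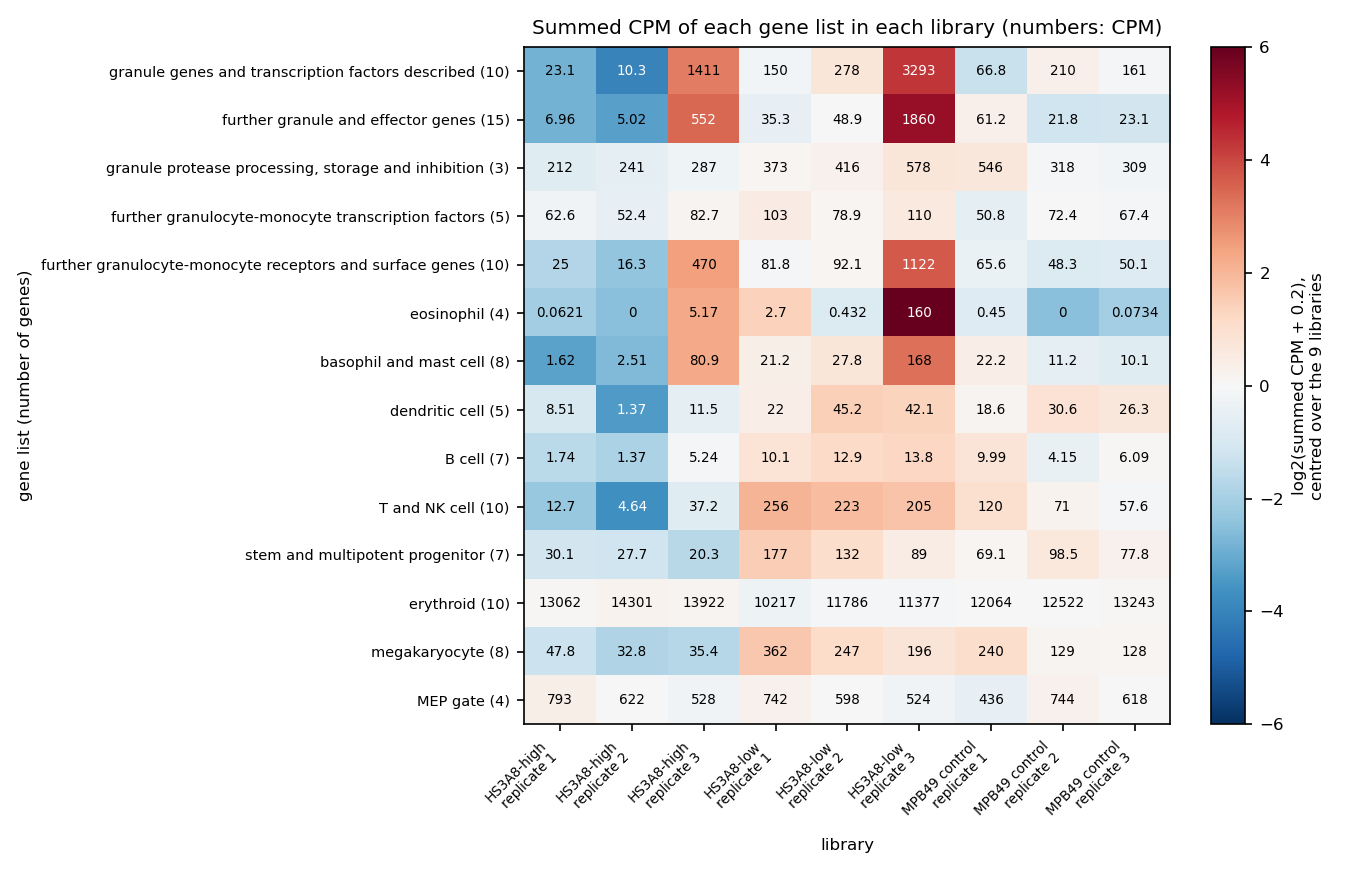
Summed TMM-scaled CPM of each gene list (rows, number of genes in brackets) in each library (columns); the printed number is the sum and the colour is its log2 after adding 0.2, centred over the 9 libraries. The 10 granule genes and transcription factors reached 1411 and 3293 CPM in the HS3A8 libraries numbered 3 against 10.3 to 278 CPM in the other 7. The sum of the 10 erythroid genes, mostly Car2 and Car1, lay between 10217 and 14301 CPM throughout.

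Within each fraction and the control, the sum of the erythroid genes, mostly Car2 and Car1, varied far less than that of the 10 genes. Alas2, at 9.28 and 7.56 CPM, and Hba-a1, at 137 and 135 CPM, were highest in the HS3A8 libraries numbered 3, as Hbb-bs was. The other libraries had 1.18 to 3.52 CPM of Alas2 and 55.7 to 83.2 CPM of Hba-a1. The remaining erythroid genes listed were not highest in both. The 8 megakaryocyte genes and the 7 stem and multipotent progenitor genes were no higher in the libraries numbered 3 than in the others of the same fraction, apart from a small excess over HS3A8-high replicate 2 for the former. They summed to 35.4 and 20.3 CPM in HS3A8-high replicate 3, where replicates 1 and 2 had 32.8 to 47.8 and 27.7 to 30.1 CPM, and to 196 and 89 CPM in HS3A8-low replicate 3, where replicates 1 and 2 had 247 to 362 and 132 to 177 CPM. The 5 dendritic cell genes, a lineage that also needs Irf8, summed to 8.51, 1.37 and 11.5 CPM in HS3A8-high and 22, 45.2 and 42.1 CPM in HS3A8-low. Flt3 made up most of these sums, while Siglech, a plasmacytoid dendritic cell gene, was at 3.31 and 5.78 CPM in the HS3A8 libraries numbered 3 and at 0 to 0.411 CPM in the other 4. Itgax, Batf3 and Xcr1 were not set apart there. These genes were at 0.398, 0.265 and 0 CPM in HS3A8-high replicate 3 and 3.4, 0.68 and 1.44 CPM in HS3A8-low replicate 3. HS3A8-low replicate 2 had 3.09, 1.15 and 1.22 CPM.

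The genes most like the 10 in pattern were sought among the 9290 genes that averaged 5 CPM or more, by Pearson's r of log2 CPM with the mean of the 10 genes over the 9 libraries. The leading 5 were Anxa3 and Slpi (r = 0.992 each), Mpnd (0.966), Unc93b1 (0.963) and Irf5 (0.963). Slpi, an inhibitor of elastase and cathepsin G, was at 0.0621, 0 and 24.1 CPM in HS3A8-high and at 1.29, 1.87 and 63.6 CPM in HS3A8-low. Unc93b1, which escorts Toll-like receptors, was at 5.03, 1.75 and 52.6 CPM and 25.1, 26.5 and 134 CPM in the same order. Each of the 10 genes had an r of 0.904 (Cebpe) to 0.995 (Prtn3) with the mean of the other 9, over 9 libraries that share the same split by number.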

How the data were processed

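Bulk RNA-seq was available for 9 libraries. Per the labels and methods, the authors mapped low-input Illumina libraries to the mm10 transcriptome with STAR, and the submitters' processing notes name STAR 2.5 and HTSeq 0.6.1. The deposited values were raw counts per gene, whole numbers with no normalization, 1 column per library. The annotation release and strand setting of the counting were not given in the sources used here, so reads shared with an overlapping gene cannot be assigned. Identifiers were joined to GENCODE M21 on GRCm38, and 34490 of 35275 matched.

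Counts were analysed in R 4.3.3 with the quasi-likelihood test of edgeR 4.0.16 (TMM, filterByExpr with a minimum count of 10, Benjamini-Hochberg adjustment over all genes tested, threshold 0.05), with only the libraries of the 2 groups compared in each fit. The SE is the log2 fold change divided by the square root of F. CPM were TMM-scaled over all 9 libraries. The methods name DESeq2, and its Wald test (DESeq2 1.42.0) was an alternative, beside DESeq2 size factors, other filters, 1 fit of all libraries, the replicate block and each library left out. Scripts were tested on simulated data. Ratios within pairs carry 95% exact intervals, conditional on the 2 counts.

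Deviations from the group mean correlated between same-numbered HS3A8-high and HS3A8-low libraries (r = 0.517, 0.345 and 0.514 over 11791 genes) and ranged from -0.482 to 0.114 between different numbers, so the numbers were taken to pair these fractions. The study's text gives 3 individual mice without saying that both fractions came from the same ones. Control libraries were not paired with either fraction (r = -0.362 to 0.0187).

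The 10 genes and the 13 other lists were chosen with earlier results of these data known. Named in the text are the 10 genes, up to 4 of each other list with the highest mean CPM, list genes past the threshold where a count is printed, and the 5 genes most like the 10. Not every gene that this rule allows is named, and Gata1, Hbb-bs and the genes of the gate were added as checks after their values were seen. Alas2, Hba-a1, Gfi1, Xcr1, Ms4a2, Tpsb2, Lcn2 and Ltf were also named beyond the rule. Promoters came from RefSeq (GRCm38.p6), using the first start listed for each gene.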

Additional observations from a re-analysis of the deposited data

How the results depend on the processing

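Depth was not varied. Of the 10 genes, 0 were called between the fractions under DESeq2 size factors, the DESeq2 Wald test, no filter on low counts, a mean count of at least 10 and a fit of all 9 libraries, and 0 with any 1 library left out. With the replicate block 6 were called, without both libraries numbered 3 likewise 6 (added once the data had been seen, as was the block for the other gene lists), and with both together 8. Over all genes the calls went from 451 to 1367 with the replicate block, 1224 with the DESeq2 Wald test, 748 without the libraries numbered 3, 3569 with both together, and 0 to 439 with any 1 library removed. They were 42 and 53 without HS3A8-high replicates 1 and 2, and 56, 0 and 244 without HS3A8-low replicates 1, 2 and 3.

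Against the control, 0 of the 9 genes of HS3A8-high were called under any alternative, and over all genes 2 calls became 143 with DESeq2, 9 with no filter, 32 with all 9 libraries in 1 fit, 0 with the replicate block and 0 to 5 with 1 library left out. For HS3A8-low, DESeq2 called 1 of the genes and 93 in all. The numbers did not pair these libraries, and the replicate block turned the difference of HS3A8-high from the control to -1.51 for Mpo, -1.10 for Elane, -0.53 for Prtn3, -1.44 for Ctsg, -0.71 for Ms4a3, -0.28 for Cebpa and -1.08 for Irf8. The cause was not tested.

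With 1 library left out, the log2 fold change of HS3A8-high over HS3A8-low ranged from -7.13 to 1.35 for Mpo, from -8.21 to 2.49 for Elane, from -5.24 to 0.94 for Prtn3, from -7.80 to 2.23 for Ctsg, from -8.35 to 2.17 for Ms4a3 and from -5.61 to 2.66 for Csf1r. Over the control, it ranged from -4.11 to 2.29 for Mpo, from -4.12 to 3.63 for Elane, from -2.21 to 2.10 for Prtn3, from -4.23 to 2.77 for Ctsg, from -4.81 to 2.63 for Ms4a3, from -1.37 to 0.43 for Cebpa, from -1.89 to 0.36 for Spi1, from -2.37 to 0.98 for Irf8 and from -2.07 to 3.07 for Csf1r. For HS3A8-low over control, it ranged from -0.06 to 4.16 for Ctsg, from -0.15 to 4.06 for Ms4a3 and from -0.20 to 4.07 for Csf1r. Of the 5 genes most like the 10, 2 remained when genes down to a mean of 1 CPM were compared.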
